A study of Mus musculus with 4 samples.

Results

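Transcripts typed as nonsense-mediated decay (NMD) were followed in cortical RNA of APPswe/PS1ΔE9 mice, sequenced as whole transcriptomes. Of 37539 transcripts in the deposited table, 1081 carried this type, and the 300 with the highest count summed over the 4 libraries were kept as members. They held 92.1% of all counts on NMD-typed transcripts. The summed count chose the members, so their abundance is a description. The comparison of genotypes did not enter this count, although members and lists were chosen with earlier results of these data known. The libraries came from 2 male APPswe/PS1ΔE9 mice (APP) on a C57BL/6 background and 2 male wild type C57BL/6J mice (WT), all 12 months old. APPswe/PS1ΔE9 mice carry transgenes driven by the mouse prion protein promoter, among them a mouse/human APP with the Swedish mutation, so the APP group models familial amyloid deposition on top of the endogenous genes. The libraries were numbered APP-3, APP-4, WT-1 and WT-2.

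NMD is a surveillance pathway of translation. When a ribosome stops well upstream of an exon-exon junction, the exon junction complex that splicing left there remains on the RNA, recruits UPF factors and leads to degradation of the transcript. Many genes, above all those of splicing regulators, use alternative splicing to make such transcripts and so set their own protein level. The NMD type in Ensembl and GENCODE annotation is given from the position of the stop codon, more than 50 bases upstream of the last junction, and not from measured decay.

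The members were first compared with GENCODE M21 (GRCm38) by transcript identifier. An entry existed for 293 of 300, and 281 of these were also typed NMD there. The others were 5 protein-coding transcripts (Ctsd-201, Gm45902-201, Ttc3-208, Plekha1-211 and Arhgap21-217), 3 with a retained intron, 2 antisense transcripts and 2 processed transcripts. In 278 of the 281 (98.9%), the stop codon lay more than 50 bases upstream of the last junction, against 95 of 20567 protein-coding transcripts (0.462%), which is the property that gives the type. The median distance was 503 bases, while the stop of the protein-coding transcripts lay in the last exon at the median, 145 bases past the last junction (-145). The 281 members had a median of 9 exons and a coding sequence of 423 bases, against 9 exons and 1335 bases in protein-coding transcripts.

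The stop codons fell into 4 main classes when set against the protein-coding transcripts of the same gene in the table. In 34 members (12.1%) the stop was that of a protein-coding transcript itself, with a further intron downstream of it. The sequences below are the last coding bases before the stop, read from GENCODE M21 transcripts 5′ to 3′, with the stop codon in capitals. They are shown for members among the most abundant or in the list of splicing regulators. Hnrnpdl-201, from a heterogeneous nuclear ribonucleoprotein gene, stopped in exon 7 of 9 at chr5:100036125-100036127 on the minus strand, 126 bases upstream of the last junction. Tardbp-201, from the gene of the RNA-binding protein TDP-43, stopped in exon 7 of 8 at chr4:148617650-148617652 on the minus strand, 84 bases upstream. Mobp-204, from the gene of a myelin protein of oligodendrocytes, stopped in exon 4 of 6 at chr9:120173188-120173190 on the plus strand, 264 bases upstream.
Hnrnpdl-201: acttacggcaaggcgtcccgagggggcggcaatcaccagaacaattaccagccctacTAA
Tardbp-201: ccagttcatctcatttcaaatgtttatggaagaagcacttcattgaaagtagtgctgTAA
Mobp-204: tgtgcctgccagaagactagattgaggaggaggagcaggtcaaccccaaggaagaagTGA
Hnrnpdl-201 had a coding sequence of 1260 bases, as long as the longest among the protein-coding transcripts of its gene. That of Tardbp-201 was shorter, with 894 of 1242 bases, and that of Mobp-204 held 243 of 510 bases.

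The most frequent class, with 124 members (44.1%), had the stop inside the coding sequence of a protein-coding transcript of the gene, where that transcript reads on. It is shown here by 4 members. Luc7l2-202, from the gene of a U1 snRNP-associated splicing factor, stopped at chr6:38585063-38585065 (plus strand) in exon 6 of 7, and Sumo2-201, from the gene of a small ubiquitin-like modifier, at chr11:115530405-115530407 (minus strand) in exon 3 of 4. Usp7-206, from a deubiquitinase gene, stopped at chr16:8710146-8710148 (minus strand) in exon 4 of 31. Ttyh1-201, from the gene of a membrane protein of the tweety family, stopped at chr7:4125557-4125559 (plus strand) in exon 4 of 14.
Luc7l2-202: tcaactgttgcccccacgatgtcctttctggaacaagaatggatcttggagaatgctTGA
Sumo2-201: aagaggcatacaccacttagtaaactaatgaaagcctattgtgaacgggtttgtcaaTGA
Usp7-206: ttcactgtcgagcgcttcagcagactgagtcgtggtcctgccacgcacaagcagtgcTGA
Ttyh1-201: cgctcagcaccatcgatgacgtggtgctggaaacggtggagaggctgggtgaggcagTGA
Usp7-206 kept 276 coding bases of the 3429 in the longest protein-coding transcript, and its stop lay 2787 bases upstream of the last junction. In Sumo2-201 this distance was 59 bases, close to the 50 that the type requires.

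In 94 members (33.5%) the stop lay in sequence that no protein-coding transcript of the gene held as exon. Srsf3-201 is the known case in which an SR splicing factor gene includes an exon that carries a stop, and it stopped at chr17:29039485-29039487 (plus strand) in exon 4 of 7. Ddx5-208, from an RNA helicase gene, stopped at chr11:106783954-106783956 (minus strand) in exon 11 of 12. Slc38a6-201, from a gene of the SLC38 transporter family and the member of highest count, stopped at chr12:73293779-73293781 (plus strand) in exon 4 of 8.
Srsf3-201: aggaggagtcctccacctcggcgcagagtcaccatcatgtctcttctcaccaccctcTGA
Ddx5-208: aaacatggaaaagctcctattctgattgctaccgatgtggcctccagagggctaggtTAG
Slc38a6-201: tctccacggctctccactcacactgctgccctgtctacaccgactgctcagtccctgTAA
A further 26 members (9.25%) came from genes with no protein-coding transcript with an open reading frame in the table, and 3 (1.07%) stopped in an exon of a protein-coding transcript outside its coding sequence. Over all 281, the stop was TGA in 150 (53.4%), TAA in 81 (28.8%) and TAG in 50 (17.8%), beside 49.9%, 26.4% and 23.7% in the 20567 protein-coding transcripts.

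The libraries held 28525117 to 43881196 counts. App had 77727 and 73975 counts in the APP libraries and 37675 and 32094 in the WT libraries. Prnp, whose promoter drives the transgenes, had 53838 and 50246 against 23138 and 18967. Both were higher in APP (log2 fold changes of 1.53 ± 0.07 and 1.72 ± 0.07, SE; adjusted p of 1.89e-06 and 9.01e-07, edgeR quasi-likelihood test on sums by gene symbol). The 11 of 15 listed cortical neuron markers found by symbol had a summed level of 870 and 810 CPM (counts scaled to the library size) in APP and of 957 and 956 CPM in WT. Their median log2 fold change was -0.23, with 10 of 11 below 0, 4 at an unadjusted p under 0.05 and 0 past the FDR, beside 11.3% and 1.34% of all symbols. Each of the 300 members was counted in every library, and the lowest single count was 37.

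Abundance was unequal among the members. Their summed counts ran from 299 to 39354 with a median of 875.5, and the 12 highest members held 251398 of 802290 counts (31.3%). At the lower limit, Cdh7-204 and Mcu-204 were included with 299 counts each, while Ankrd24-204 and Vwc2-203 with 298 were not. On the scale of CPM per kilobase of transcript, the highest levels in WT among 293 members of known length were those of Slc38a6-201 (126 ± 0.381, SD, n = 2), Sumo2-201 (110 ± 2.67), Eif4a1-201 (87.4 ± 4.63), Pfdn5-201 (82.8 ± 3.66) and Ctsd-201 (79.4 ± 0.960). Slc38a6-201 stood above Sumo2-201 by more than their spread, while the ranges of mean ± SD of neighbours met from Eif4a1-201 to Pfdn5-201 and from Pfdn5-201 to Ctsd-201, but those of Eif4a1-201 and Ctsd-201 did not. In APP, Ctsd-201 was at 199 ± 11.0 CPM per kilobase and above the other members named here.

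The question for each member was whether its count differed between APP and WT. With edgeR's quasi-likelihood test over all 37539 transcripts, 1 of 300 members (0.333%) passed an FDR of 0.05 together with a 1.5-fold change, beside 0.85% of all transcripts (0.781% higher and 0.0693% lower in APP) and 1.28% of the 18020 transcripts at least as abundant as the members. An FDR of 0.05 alone was passed by 3 members (1.0%), beside 1.09% of all transcripts and 1.78% of the as abundant ones. An unadjusted p under 0.05 was found for 25 members (8.33%), beside 9.43% of all and 12.6% of the as abundant transcripts. Of these 25, 17 were higher and 8 lower in APP, where all transcripts gave 5.95% and 3.48%. The 2 libraries of each group did not overlap in 52 members that were higher (17.3%; all transcripts 19.9%, as abundant ones 19.8%) and 56 that were lower in APP (18.7%; 18.6% and 21.7%). These shares were near or below the background.

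The fitted log2 fold changes of the members had a median of 0.00 and quartiles of -0.09 and 0.11, with a median of 0.01 over all transcripts. In 296 of 300 the fitted change was smaller than 1.5-fold, and in 234 it was under 0.2 on the log2 scale. The median SE was 0.15, and 0.10 in the 100 most abundant members, so that a change of that size in a single member was not detectable. Larger changes could also fail to pass, as in Ankrd33b-201 (-0.26, adjusted p = 0.217) and Mcu-204 (0.42 ± 0.22, adjusted p = 0.601, both edgeR). Changes beyond 1.5-fold failed too. In the 281 members typed NMD in GENCODE M21, fitted changes ran from -0.91 to 0.77, and 0 passed both cut-offs. Members that did not pass are therefore not shown to be unchanged. Between the libraries of 1 group, the median absolute log2 difference in CPM was 0.140 for APP and 0.120 for WT.

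**Figure D1:**
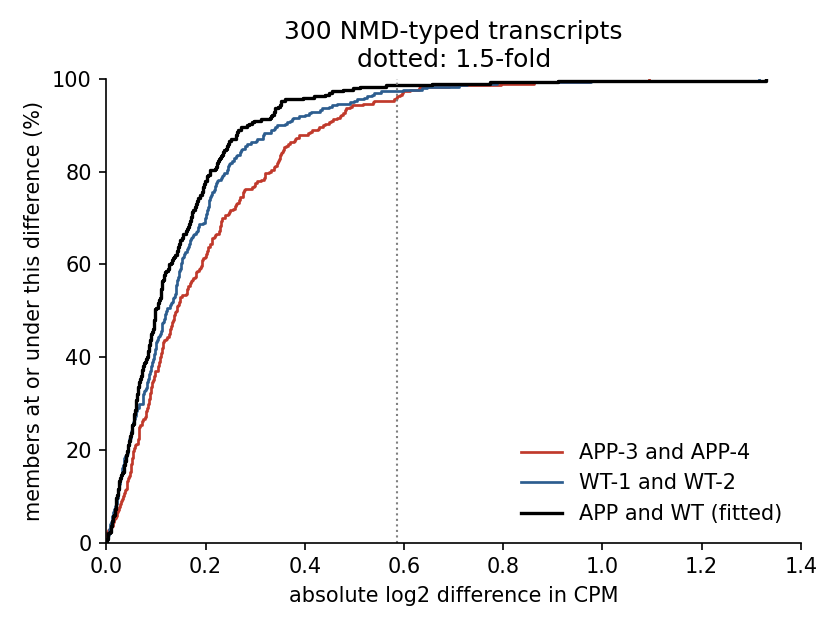
Cumulative share of the 300 members (y axis, %) at or under an absolute log2 difference in CPM (x axis), between both APP libraries (red), between both WT libraries (blue) and between APP and WT as fitted (black). The dotted line marks 1.5-fold. The black curve averages 2 libraries a group and lies above both others over most of its range, with 296 of 300 members left of the line.

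By the place of the stop, the medians were all near 0. The median log2 fold change was 0.01 in the 124 members that stopped inside a coding sequence, 0.00 in the 94 that stopped in sequence outside protein-coding exons and -0.03 in the 34 at the stop of a protein-coding transcript. The 26 of genes without a protein-coding transcript had a median of -0.06. The quartiles of all 4 classes lay on both sides of 0.

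The member past both cut-offs was Ctsd-201 (chr7:142375917-142387857, minus strand), from the gene of the lysosomal protease cathepsin D. It was at 368 and 398 CPM in APP and at 154 and 151 CPM in WT. Both APP libraries were far above both WT libraries, and the log2 fold change was 1.33 ± 0.07 (SE; edgeR, adjusted p = 1.05e-08). GENCODE M21 types it protein-coding, with a coding sequence of 1212 bases and a stop in the last of its 9 exons at chr7:142376571-142376573, 168 bases past the last junction (-168). Its last coding bases are shown because its position separates it from the members above.
Ctsd-201: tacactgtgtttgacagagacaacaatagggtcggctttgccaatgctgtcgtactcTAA
It took 96.6% of the counts of its gene in both APP libraries and 95.9% and 95.4% in WT, and the other transcripts of Ctsd were higher by 0.96 on the log2 scale. It shared 652 bases with Gm49369 on the same strand. Ctsd was listed here among microglial markers. Of the other 34 found by symbol, 28 were higher in APP and 0 lower at an FDR of 0.05. Over all symbols, 1.34% passed in either direction. Their summed level was 933 and 1111 CPM in APP and 535 and 540 CPM in WT. Of these 34 markers, 1 had a count of 0 in a library. This was Cst7, a marker of activated microglia, with 2 counts in WT-1 and 0 in WT-2. Of 16 astrocyte markers found by symbol, 4 were higher in APP and 0 lower at an FDR of 0.05. Summed, the astrocyte markers were at 6330 and 6706 CPM in APP and at 5750 and 5398 CPM in WT. The part of either list in the result was not tested. In whole cortex, more cells of a type and more RNA per cell cannot be told apart.

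Mobp-204 (chr9:120149742-120181484, plus strand) passed the FDR but not 1.5-fold. It was at 261 and 226 CPM in APP and at 175 and 181 CPM in WT. The groups did not overlap, although both APP libraries differed from each other by more than both WT libraries did, and the log2 fold change was 0.45 ± 0.08 (adjusted p = 0.006, edgeR). Of its 2609 bases, 2039 were in no other transcript of Mobp in the table, and it took 80.6% ± 0.85 of the gene's counts in APP and 79.7% ± 0.04 in WT (SD, n = 2). The remaining Mobp transcripts were higher by 0.38 on the log2 scale, with an adjusted p of 0.127 for their sum by symbol (edgeR). By symbol, all 18 listed oligodendrocyte markers, Mobp among them, had log2 fold changes above 0. An unadjusted p under 0.05 was found for 15 of them (edgeR), beside 11.3% of all symbols. Without Mobp, 3 of 17 were higher at an FDR of 0.05 and 0 lower, beside 1.34% of all symbols. The median of their log2 fold changes was 0.41. Their summed level was 1964 and 1696 CPM in APP and 1264 and 1423 CPM in WT, and none was at 0. Their part in the result was not tested. With either WT library left out, Mobp-204 no longer passed the FDR (adjusted p of 0.479 without WT-1 and 0.31 without WT-2), while its log2 fold change was 0.43 and 0.47 in these fits.

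Slit2-201 (chr5:47983154-48304396, plus strand), from the gene of a secreted axon guidance ligand and named after its values were seen, passed the FDR in the other direction. It was at 22.1 and 26.5 CPM in APP and at 33.1 and 36.3 CPM in WT. It fell by 0.51 ± 0.11 on the log2 scale (adjusted p = 0.023, edgeR), short of 1.5-fold. It held 0 bases that no other Slit2 transcript in the table had, and took 62.9% and 64.5% of the gene's counts in APP against 66.5% and 70.4% in WT. Without WT-1 its adjusted p was 0.246 and without WT-2 0.54, at log2 fold changes of -0.58 and -0.44.

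**Figure D2:**
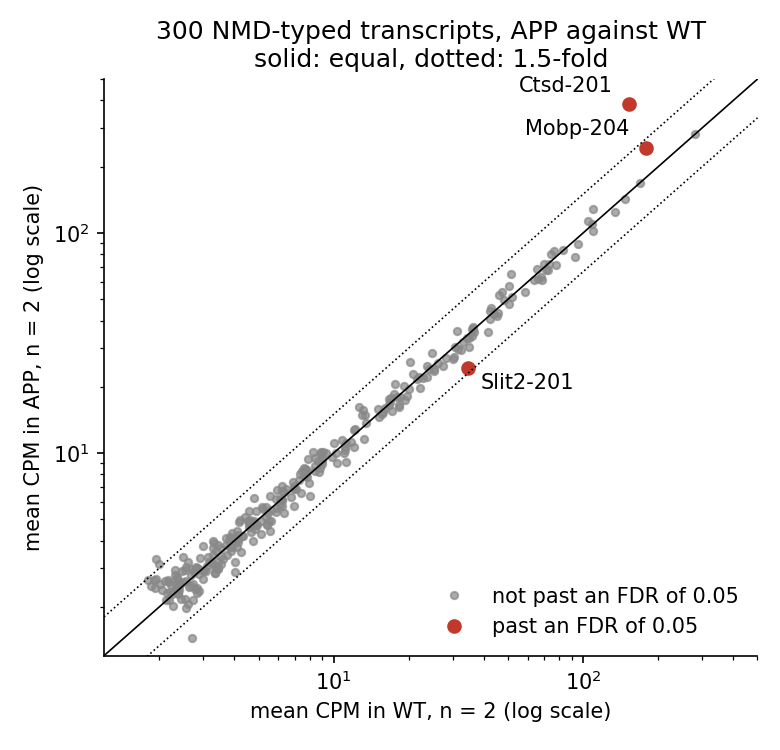
Mean CPM in APP (y axis) against mean CPM in WT (x axis) for the 300 members, both on log scales, 2 libraries a group. The solid line marks equal levels and the dotted lines 1.5-fold. Ctsd-201 lies outside the dotted lines, Mobp-204 and Slit2-201 passed the FDR (red) inside them, and most other members lie close to the solid line.

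The most abundant members apart from Ctsd-201 and Mobp-204 did not pass the test. Slc38a6-201 was at 283 and 282 CPM in APP and at 282 and 281 CPM in WT (log2 fold change 0.00 ± 0.06), with all 4 libraries at the same level. Ttyh1-201 was at 170 and 166 CPM in APP and 173 and 164 CPM in WT. Among transcripts of the ubiquitin and SUMO system, Usp7-206 was at 146 and 139 against 143 and 152 CPM. Usp32-201, from another deubiquitinase gene, was at 124 and 124 CPM in APP and at 134 and 134 CPM in WT, with both APP libraries lower, at a log2 fold change of -0.11 ± 0.07 that did not pass (adjusted p = 0.705, edgeR). Sumo2-201 was at 108 and 97.5 CPM in APP and 108 and 111 CPM in WT. In Ttyh1-201, Usp7-206 and Sumo2-201 libraries of 1 group differed by more than the group means did.

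Flt3l, a row named after a cytokine gene whose identifier had no entry in GENCODE M21, was at 123 and 133 CPM in APP and at 110 and 109 CPM in WT. Its groups did not overlap, and its log2 fold change of 0.23 ± 0.08 had an adjusted p of 0.244 (edgeR). Ankhd1-201, from a gene of ankyrin repeat and KH domains, was at 108 and 110 against 110 and 107 CPM. Pitpna-201, from the gene of a phosphatidylinositol transfer protein, was at 93.3 and 85.1 CPM in APP and at 90.0 and 101 CPM in WT. Ankrd33b-201 was at 81.0 and 74.2 against 88.7 and 97.3 CPM, with both APP libraries below both WT libraries and a log2 fold change of -0.26 ± 0.08 that did not pass (adjusted p = 0.217, edgeR).

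**Figure D3:**
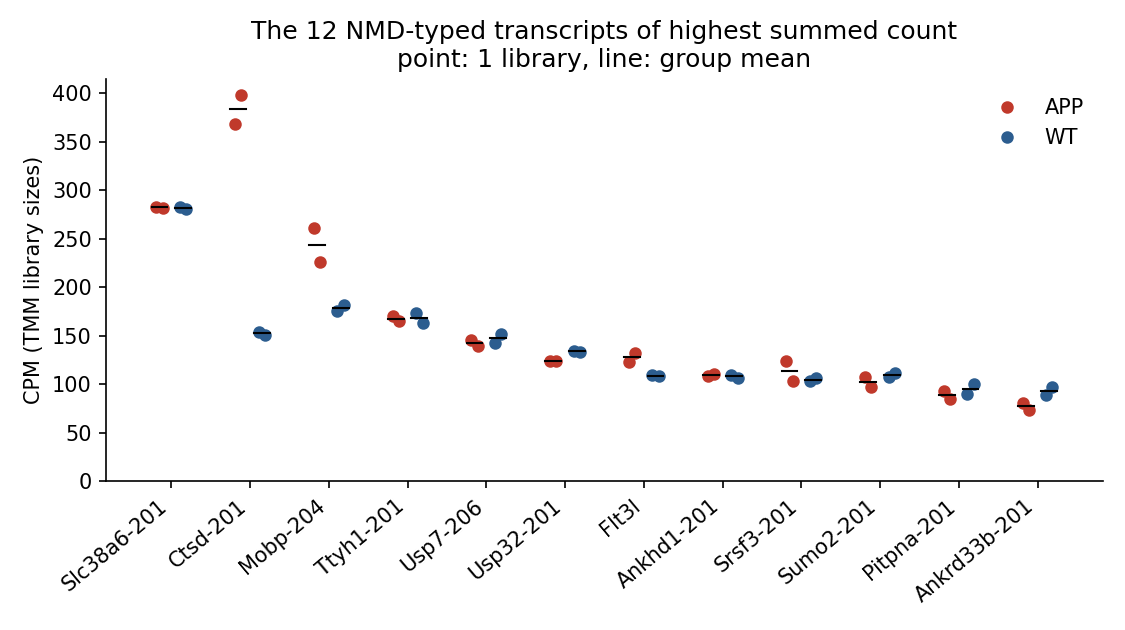
CPM (y axis, TMM library sizes) of the 12 members of highest summed count (x axis) in each library, APP in red and WT in blue, with a line at each group mean. Ctsd-201 and Mobp-204 are higher in both APP libraries, and Slc38a6-201 lies at 281 to 283 CPM in all 4.

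The list of 90 splicing regulators gave 17 members, the most of the lists examined. These lists differed in size (98 translation and 82 synaptic genes), and Hnrnpdl and Luc7l2 gave 2 members each. An excess of splicing regulators over other genes was not tested. Of the 17 members, 0 passed the FDR or an unadjusted p of 0.05, which 9.43% of all and 12.6% of the as abundant transcripts had. For 17 members, a count of 0 is near that background. Their log2 fold changes ran from -0.28 to 0.21 with a median of 0.06, 11 above 0 and 6 below. Srsf3-201 was at 124 and 103 CPM in APP and at 103 and 106 CPM in WT, where APP-3 alone stood above the others. Hnrnpdl-201 was at 91.8 and 74.3 against 72.8 and 80.1 CPM, and Tardbp-201 at 72.3 and 65.5 against 65.8 and 65.4 CPM. In these 3 the APP libraries differed from each other by more than the group means did. Luc7l2-202 was at 79.7 and 81.4 CPM in APP and at 75.6 and 73.7 CPM in WT, without overlap, and the log2 fold change was 0.11 ± 0.08 (edgeR, adjusted p = 0.744). Ddx5-208 was at 61.9 and 82.5 against 69.5 and 70.1 CPM, with APP-3 lowest and APP-4 highest.

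The genes of translation gave 2 members, of which 0 passed the FDR and 1 (Eef1b2-201) had an unadjusted p under 0.05, beside 9.43% of all transcripts. Eif4a1-201, from the gene of the helicase of cap-dependent initiation, was at 68.2 and 68.1 CPM in APP and 68.4 and 73.8 CPM in WT. Eef1b2-201, from the gene of an elongation factor subunit, was at 51.9 and 52.4 against 45.5 and 46.2 CPM, with a log2 fold change of 0.18 ± 0.08 and an adjusted p of 0.506 (edgeR). As gene sums by GENCODE M21, 96 of the 98 listed translation genes were found, with a median log2 fold change of 0.19, 89 above 0, 1 past the FDR and 47 with an unadjusted p under 0.05, beside 1.25% and 12.4% of all genes. By symbol 21 were found, with a median of 0.13, 0 past the FDR and 6 with an unadjusted p under 0.05. The synaptic list gave Nrxn3-208, from a presynaptic adhesion gene, with 259 and 246 counts in the APP libraries and 308 and 297 in the WT libraries (8.45 ± 0.782 and 7.69 ± 0.990 CPM, SD, n = 2). The cortical neuron markers gave Cux1-203 at 5.73 and 4.11 CPM in APP and 5.53 and 5.51 CPM in WT. No member came from the lists of NMD factors, of the exon junction complex or of amyloid and tau genes.

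The factors of the pathway were then examined as gene sums. Of 21 listed NMD factors, 18 were found by symbol, and 0 passed an FDR of 0.05 (edgeR), beside 1.34% of all 22919 symbols. Their log2 fold changes ran from -0.25 to 0.26 with a median of -0.02, and 1 had an unadjusted p under 0.05, where all symbols had 11.3%. This was Dcp2, the catalytic subunit of the decapping enzyme, named after its values were seen, with 2808 and 3344 counts in the APP and 4986 and 4213 in the WT libraries (102 ± 7.71 and 116 ± 3.86 CPM; log2 fold change -0.18 ± 0.07, adjusted p = 0.389). Summed, the NMD factors were at 1113 and 1128 CPM in APP and at 1143 and 1155 CPM in WT. Of 12 listed components of the exon junction complex and its partners, 9 were found by symbol, with log2 fold changes from -0.13 to 0.14, 0 past the FDR and 0 at an unadjusted p under 0.05. Grouped by GENCODE M21 gene, 20 and 12 were found, and again 0 passed, beside 1.25% of 18386 genes.

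In 16 genes more than 1 transcript was a member. Desi1 had 3, and the fold changes of the members of 1 gene had the same sign in 7 of the 16 genes. In Hnrnpdl, the abundant Hnrnpdl-201 was accompanied by Hnrnpdl-205 at 6.33 and 6.39 against 4.83 and 6.27 CPM, and in Luc7l2 by Luc7l2-204 at 2.82 and 2.98 against 3.08 and 1.86 CPM. The smallest adjusted p in any of these genes was 0.482 (edgeR).

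A constant total count can hide a shift between transcripts of 1 gene, so each member was also expressed as a share of all transcripts with its gene symbol. The table gave no symbol for 82 members, and 25 were the only transcript of theirs, which left 193 with a share. The median share was 38.7%, with 74 members over 50% and 47 under 10%. In 48 members the symbol differed from that of GENCODE M21 for the same identifier (Srsf3-201, Tardbp-201 and Sumo2-201 were listed under the names Gm7083, Gm13886 and Gm10241). Grouped by GENCODE M21 gene, 281 members had a share, with a median of 30.2%, 91 over 50% and 84 under 10%.

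The median shares were close between groups. By symbol, the median share was 38.2% and 39.8% in APP and 39.0% and 37.0% in WT. The median difference, APP minus WT, was 0.0963 percentage points and the median absolute difference 0.813 points. With edgeR's test of a transcript against the other transcripts of its symbol, 0 of 193 members passed an FDR of 0.05, beside 5 of 20587 transcripts (0.0243%). An unadjusted p under 0.05 was found for 2 members (1.04%), beside 2.72% of all. The groups did not overlap in 26 members with a higher share in APP (13.5%, all transcripts 17.0%) and in 36 with a lower one (18.7%, all transcripts 16.4%). By GENCODE M21 gene, 0 of 281 passed, beside 0.0338% of 26648 transcripts, and 2 (0.712%) had an unadjusted p under 0.05, beside 2.89%. The share test called few transcripts of any type with 2 libraries a group. Members that did not pass are therefore not shown to keep the same share.

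The differences in share ran from -14.2 to 6.49 points, and 7 of 193 were over 5 points in size. The members of this paragraph were named after their values were seen. Anxa4-204, from the gene of a calcium-dependent phospholipid-binding protein, took 21.8% and 30.5% of its symbol in APP and 45.0% and 35.6% in WT, on no more than 126 counts in a library. The libraries of each group differed from each other by more than 8 points, and the unadjusted p was 0.0824 (edgeR). Ccdc167-201, at the other end, took 75.2% and 61.6% in APP and 66.8% and 57.0% in WT, so that the groups overlapped.

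**Figure D4:**
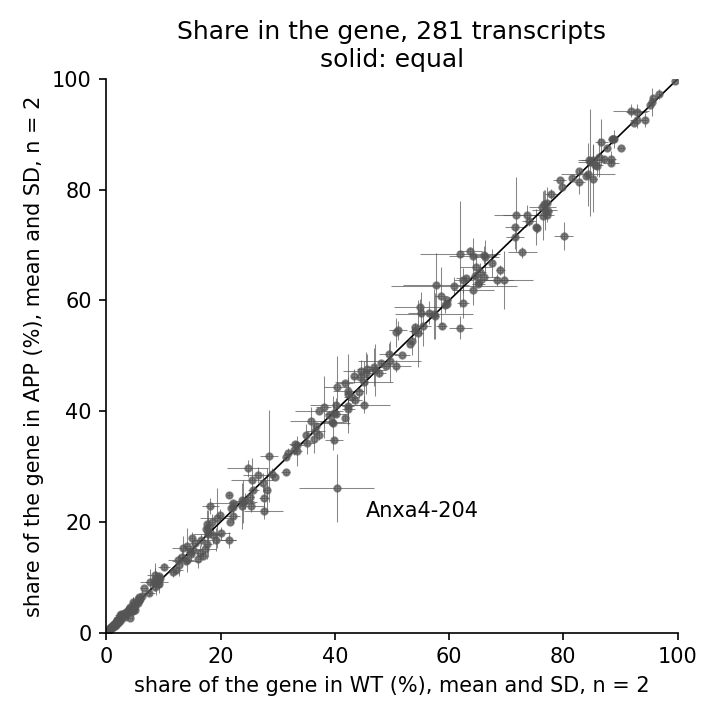
Share of each member in the counts of its GENCODE M21 gene in APP (y axis, %) against WT (x axis, %), as mean and SD of 2 libraries, for 281 members. The points follow the line of equal shares from under 10% to over 90%, and Anxa4-204 lies farthest below it.

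A share also depends on how reads that several transcripts hold were assigned, and 86 members had 0 bases that no other transcript of their gene in the table held. For these, only reads across a junction of their own could be specific to them. Among them, the 58 whose Ensembl identifier was the lowest of their gene took a median of 54.5% of its counts (quartiles 41.4% and 70.4%), and the 28 with another, lower identifier took 3.54% (1.41% and 17.1%). The same order was seen in the 141 members with some bases of their own in under 50% of their length (64.5% in 51 and 7.29% in 90) and in the 54 with at least 50% (84.9% in 10 and 29.5% in 44). Protein-coding transcripts gave medians of 90.5% in 6852 of lowest identifier and 2.81% in 7822 others. The part of read assignment in this order was not tested. Among the 12 highest members, Ctsd-201, Ttyh1-201, Usp32-201, Srsf3-201, Sumo2-201, Pitpna-201 and Ankrd33b-201 had 0 bases of their own, so their levels and shares are uncertain between transcripts of the gene.

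**Figure D5:**
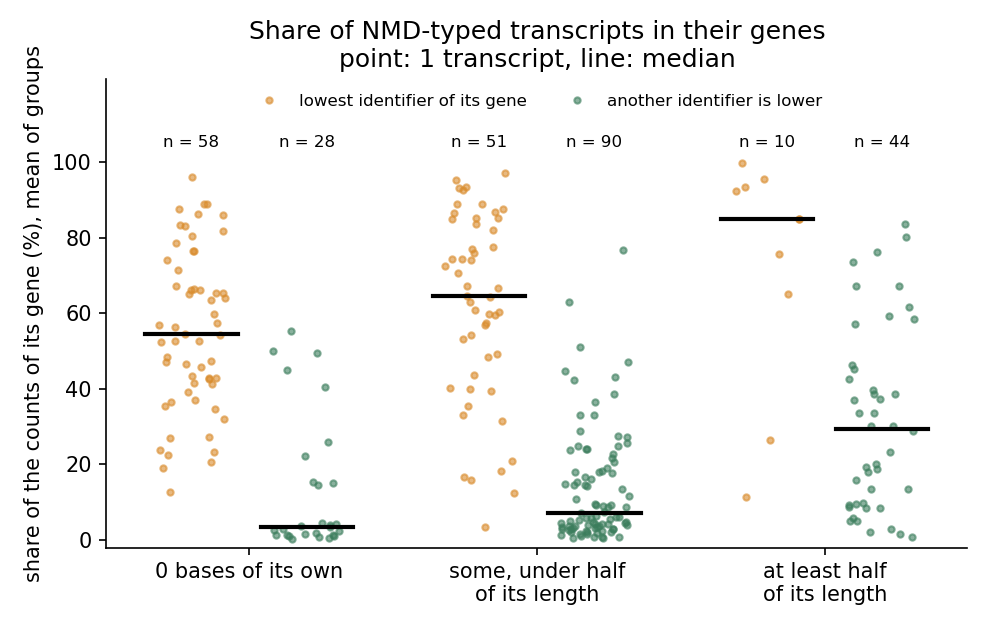
Share of each member in the counts of its gene (y axis, %, mean of both groups) by the part of its length that no other transcript of the gene held (x axis), for members with the lowest identifier of their gene (orange) and others (green). Points are transcripts, lines are medians and n is given above each set. The orange medians are 54.5%, 64.5% and 84.9% and the green ones 3.54%, 7.29% and 29.5%.

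The 66 members private in at least 50% of their length, single transcripts of a gene included, had log2 fold changes with a median of 0.03. The 86 without bases of their own had a median of -0.03. Private bases were counted within the gene only, and 16 of the 300 members also held bases of another gene on the same strand. The FDR was passed by 1 of the 66 (Mobp-204) and by 2 of the 86 (Ctsd-201 and Slit2-201), beside 1.09% of all transcripts and 1.78% of the as abundant ones. Both APP libraries were below both WT libraries in 8 of the 66 (12.1%) and in 26 of the 86 (30.2%), beside 18.6% and 21.7%, and above them in 12 (18.2%) and 16 (18.6%), beside 19.9% and 19.8%. The difference between both classes was not tested. Across the 278 members whose gene had other transcripts of at least 10 counts in every library, the log2 ratio of the member and that of the rest of its gene had a Pearson correlation of 0.46 and a Spearman correlation of 0.387. This is a description across transcripts of the same 4 libraries, which also share reads, and without Ctsd-201 the Pearson value was 0.376.

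The members together took 0.599% and 0.585% of all counts in APP and 0.564% and 0.562% in WT. The difference of 0.0283 percentage points had an exact permutation p of 0.333 (two-sided), the smallest that 2 libraries against 2 can give. Without Ctsd-201, the shares were 0.561% and 0.545% in APP and 0.549% and 0.547% in WT, so that the groups overlapped. As a share of nuclear protein-coding and NMD-typed counts, the members without Ctsd-201 took 0.796% and 0.817% in APP and 0.791% and 0.789% in WT, without overlap and with a difference of 0.0163 points (exact permutation p = 0.333).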

How the data were processed

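Counts per transcript, deposited by the authors without normalization, were analysed for 2 APP and 2 WT libraries of 28525117 to 43881196 counts. The authors removed ribosomal RNA with a kit and made stranded libraries of paired 100-base reads. They dropped read pairs that matched ribosomal RNA, mapped those left to mouse Ensembl RNAs with FANSe2 at up to 7 mismatches, and kept transcripts with at least 10 reads. The submitters' processing notes name CASAVA 1.8, edgeR and hg19, a human build. The Ensembl release and the rule for reads that several transcripts share are not given in the sources used here. The deposited log2 CPM columns (4, per library) and the authors' own fold changes, p-values and FDRs were not used. WT columns were matched to samples by number, APP columns only to their group.

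Counts were tested with edgeR 4.0.16 (R 4.3.3): TMM normalization, quasi-likelihood test, no covariate, Benjamini-Hochberg adjustment over 37539 transcripts, FDR under 0.05 and 1.5-fold (the cut-offs of the study). The common dispersion was 0.00875. SE is the absolute log2 fold change divided by the square root of F. CPM use TMM library sizes, with SDs over 2 libraries. Shares were tested with diffSpliceDGE over 20587 transcripts of symbols with at least 2. Gene sums were by symbol. Structures and sequences came from GENCODE M21 (GRCm38), which covered 98.2% of transcripts, with coding lengths that leave out the stop codon. Tests were checked on simulated counts, with each transcript drawn independently, which does not cover reads that transcripts share.

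Named were the 12 members of highest count, those at the limit of 300, those past the tests, and up to 5 of each gene list. Results that need an item withheld here are not reported. Members and lists were chosen with earlier results of these data known. Alternatives were DESeq2 1.42.0, limma 3.58.1, edgeR's exact test, other scalings, filters, groupings, and leaving out each library. Counts carry no molecular identifiers, so their precision covers counting error and the spread of 2 mice a group. Python 3.11.15, pandas 2.3.3, numpy 2.4.6 and matplotlib 3.10.9 were used.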

Additional observations from a re-analysis of the deposited data

How the results depend on the processing

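The 2 mice a group limit every test, and depth limits most the members near 300 counts. Over all transcripts, 319 passed both cut-offs, 212 with DESeq2, and 79 to 877 with 1 library left out (877 without APP-3, 630 without APP-4, 79 without WT-1, 112 without WT-2). In such fits the lone library of a group is assumed to vary like the other group. Among the members, 1 passed in the comparison reported, 2 with edgeR's exact test (Ctsd-201 among them), 1 to 4 with 1 library left out, and 0 when only members typed NMD in GENCODE M21 were kept, a restriction chosen after seeing the data. Without APP-3 the 3 were Ctsd-201, Evi2-201 and Glis3-201, and the 4 without APP-4 included Ctsd-201, Slit2-201 and Tmem163-201. Ctsd-201 passed both cut-offs in all 10 alternative fits over transcripts, with log2 fold changes of 1.27 to 1.39. The median log2 fold change of the members was 0.00297, between -0.0085 and 0.00367 with 1 library left out, and -0.00868 over all NMD-typed transcripts. The share of all counts on the members differed by 0.0283 points, by 0.0214 to 0.0353 with 1 library left out, by 0.0503 over nuclear protein-coding and NMD-typed counts, by 0.00523 without Ctsd-201 and by 0.00162 for members typed NMD in GENCODE M21, the last 2 chosen after seeing the data. Their cause was not tested where the construction does not give it. Calls of share and of NMD factors were 0 in every alternative run. In gene sums without APP-3, 2 NMD or exon junction factors passed the FDR alone, and without APP-4 1. With at least 10 counts in every library 217 transcripts passed both cut-offs and with edgeR's exact test 431. In the remaining alternatives, counts of calls stayed within 1.5 times those reported, and medians and differences in share within 1 SD of the replicates. No paired analysis was possible because the sample labels give no pairing between APP and WT mice.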
